A study of Rattus norvegicus with 9 samples.

Results

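Gene expression after thrombin was compared with plasma alone in cultured rat chondrocytes, the cells that make and maintain cartilage, over all genes. The comparison used 6 of the 9 libraries of the series, chosen by their titles. There were 3 libraries from cells held in rat plasma (RP) and 3 from cells held in rat plasma with added thrombin (RPT), each taken after 24 h. The cells were primary chondrocytes of SD rats at passage 1 or 2, with no gene modification named in the labels, and were routinely grown with fetal bovine serum. Both groups therefore had plasma, and no group was kept without it. The other 3 libraries, from cells given plasma and thrombin together with an unnamed inhibitor, entered the model only to share its estimate of spread. The dose of thrombin and the age and sex of the animals are not in the labels. Nor do they tell whether each library had an animal or culture of its own. The p-values below therefore rest on library-to-library spread alone, some or all of which may be technical.

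Thrombin is the serine protease that turns fibrinogen into fibrin at the end of the clotting cascade. It also acts on cells by cutting protease-activated receptors, which signal through G proteins to calcium and the RAS, RAF, MEK and ERK kinase cascade. The activity of that cascade and of the transcription factor Stat3, which the series names as its question, is set by phosphorylation and cannot be read from their own transcript levels. Chondrocytes build a matrix of type II collagen fibrils and aggrecan under control of Sox9. Inflammatory signals are known to lower that programme while raising matrix metalloproteinases, chemokines and prostaglandin synthesis, and chondrocytes are known to lose part of the programme with passage in monolayer culture.

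The 6 libraries held between 31877265 and 43962783 counts over genes, and 1 count was worth 0.0226 to 0.031 CPM (counts scaled to library size, with TMM factors between libraries). Mitochondrially encoded genes took 2.9% to 3.29% of counts in RP and 3.01% to 3.2% in RPT. The label of the cells was checked against markers. The 12 chondrocyte markers were all expressed and together held 50100 to 51300 CPM in RP and 31400 to 33500 CPM in RPT, and each of the 12 fell. Macrophage markers summed to 24.5 to 28.8 CPM in RP and 45.3 to 46.8 CPM in RPT, most of it from Cd14, which many cell types express and which rose from 21.5, 23.2 and 19.3 CPM to 40.3, 39.4 and 41.3 CPM. Of 4 tested macrophage markers 2 rose, 1 fell and 1 did not pass. The pan-leukocyte gene Ptprc had 0, 3 and 3 counts in RP and 1, 2 and 0 counts in RPT, and the macrophage gene Adgre1 1, 0 and 5 and 1, 2 and 1. Endothelial markers summed to 3.42 to 4.31 CPM in RP and 6.93 to 6.98 CPM in RPT, with the defining gene Cdh5 at 0, 0 and 0 counts in RP and 0, 2 and 0 in RPT. Of 3 tested endothelial markers 2 rose, 1 of them at least 2-fold, and 1 did not pass. Platelet and blood markers summed to at most 0.859 CPM in any library, with Gp9 at 0 in all. Markers of fibroblasts and the synovial lining summed to 16100 to 17300 CPM in RP and 10000 to 10800 CPM in RPT, and of 11 tested 6 fell, 1 rose (Prg4) and 4 did not pass. Osteoblast markers summed to 11200 to 12500 CPM in RP and 6250 to 7090 CPM in RPT, and of 5 tested 1 fell and 4 did not pass. The gene that fell was Col1a1, which is in both lists and had 12331, 12546 and 11241 CPM in RP and 6382, 7084 and 6245 CPM in RPT. In RNA from whole cultures, fewer cells of a type and less RNA per cell cannot be told apart. The part of other cell types in the results was not tested beyond these values.

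Many genes differed with thrombin, most of them by little. Of 13856 genes tested, 1886 rose (13.6%) and 2113 fell (15.2%) in edgeR's quasi-likelihood test at a Benjamini-Hochberg adjusted p below 0.05, so 28.9% were called. A change under 1.5-fold was seen for 2512 of the called genes (62.8%). A change of at least 2-fold was seen for 217 genes that rose (1.57%) and 494 that fell (3.57%), and of at least 4-fold for 58 and 88. The RP and RPT values did not overlap for 96.8% of the called genes, against 40.4% of all tested genes. The median log2 fold change over all tested genes was -0.00, which is the level to read each list against. A value in parentheses after a gene name, with or without its SE, is its log2 fold change (RPT minus RP). Without TMM scaling the balance turned, with 2119 genes rising and 1975 falling (51.8% rising against 47.2%), and on log2(FPKM + 1) it turned too (52.9% rising).

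The direction differed with abundance. Tested genes were divided by mean CPM into a low, a middle and a high class of equal size. In the low class 308 rose and 659 fell, and of the changes of at least 2-fold 148 were rises and 365 were falls. In the middle class 687 rose and 714 fell, and in the high class 891 rose and 740 fell. Summed as CPM, the genes that rose gained 58060 CPM in all, and the sum over those that fell dropped by 76070 CPM. CPM are not corrected for gene length, so genes with long transcripts weigh more in these sums and shares. Fibronectin (Fn1), a large adhesive glycoprotein, gave the largest gain, 7620 CPM or 13.1% of all CPM gained by genes that rose, although it rose only 1.17-fold. The osteopontin gene Spp1 followed with 2963 CPM. Col2a1, which encodes the main collagen of cartilage, gave the largest loss: its mean fell by 9866 CPM, a share of 13% of the CPM lost by genes that fell. Col1a1, of bone and fibrous tissue, fell by 5469 CPM.

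**Figure D1:**
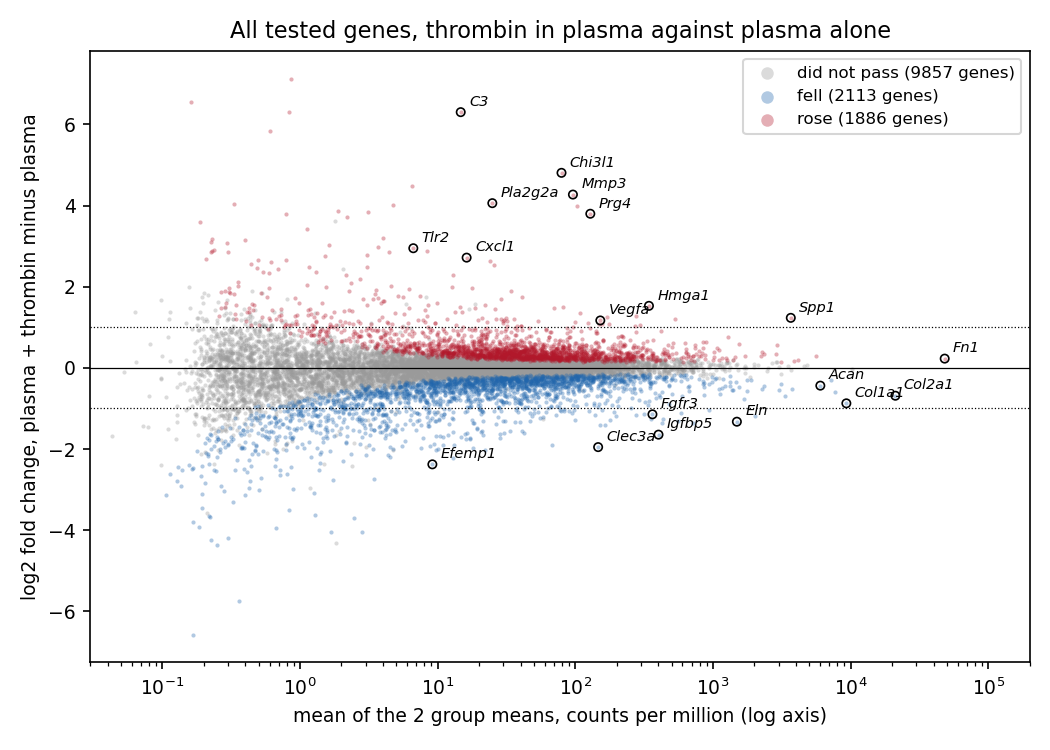
Each point is 1 of the 13856 tested genes, with the mean level of RP and RPT in CPM on a log axis and the log2 fold change (RPT minus RP) on the vertical axis; red genes rose (1886), blue genes fell (2113) and grey genes did not pass. Dotted lines mark 2-fold changes, and the circled genes are named in the text. The matrix genes Col2a1, Col1a1 and Acan lie among the fallen genes at the abundant end, inside the 2-fold lines. C3, Chi3l1 and Mmp3 sit highest among genes over 10 CPM.

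The largest rises included secreted proteins of inflammation and of the joint surface. Among called genes that carry a symbol, average 5 CPM or more and show no overlap, C3, the central complement component, rose most. Its CPM were 0.294, 0.447 and 0.370 in RP and 32.4, 27.2 and 27.4 in RPT (log2 fold change 6.30, SE 0.19, edgeR adjusted p = 4.17e-10). The secreted glycoprotein gene Chi3l1 had 5.74, 5.51 and 5.12 CPM in RP and 183, 148 and 128 CPM in RPT. Every RPT library lay more than 20-fold above every RP library for both genes. Mmp3, which encodes stromelysin, had 10.3, 9.20 and 8.74 CPM in RP and 200, 179.7 and 168 CPM in RPT, a 19.3-fold rise. Pla2g2a, a secreted phospholipase, rose from 3.17, 2.38 and 2.85 CPM to 54.7, 47.3 and 39.2 CPM. The siderophore-binding protein gene Lcn2 rose from 12.3, 13.1 and 11.5 CPM to 214, 195 and 174 CPM. A large change without overlap was what the rule asked for, so the gap between the groups adds no support for the genes of this paragraph. Prg4 encodes lubricin, the lubricant of the joint surface, and had 17.7, 15.6 and 18.2 CPM in RP and 261, 228 and 231 CPM in RPT, a 13.9-fold rise. Next came the pattern receptor gene Tlr2 (7.73-fold), the elastase inhibitor gene Slpi (7.33-fold), the chemokine genes Cxcl1 (6.58-fold) and Ccl2 (6.25-fold), the secreted protein gene Scube3 (5.82-fold), the gap junction gene Gjb2 (4.90-fold), the uridine phosphorylase gene Upp1 (3.96-fold), the prostaglandin E synthase gene Ptges (3.92-fold) and Nfkbiz (3.84-fold), a regulator of NF-kB.

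The largest falls by the same rule were smaller. Efemp1, which encodes a fibulin of the extracellular matrix, had 14.5, 14.5 and 17.0 CPM in RP and 2.95, 2.45 and 3.45 CPM in RPT, a 5.20-fold fall. Mylk, the myosin light chain kinase, fell 4.68-fold from 20.6, 20.9 and 22.0 CPM to 4.52, 4.30 and 4.73 CPM. No overlap between the groups was a condition of the rule, so it adds nothing for these genes. Then came Rflna and the dynein gene Dync1i1 (4.06-fold and 4.06-fold), the receptor tyrosine kinase gene Kit (4.01-fold), the ecto-nucleotidase gene Entpd3 (3.94-fold), Cilp, which encodes cartilage intermediate layer protein (3.92-fold), the cartilage lectin gene Clec3a (3.87-fold) and the anion transporter gene Slc26a7 (3.78-fold). Of these, Clec3a was the most abundant, with 239.7, 216 and 242 CPM in RP and 61.3, 53.0 and 65.9 CPM in RPT.

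**Figure D2:**
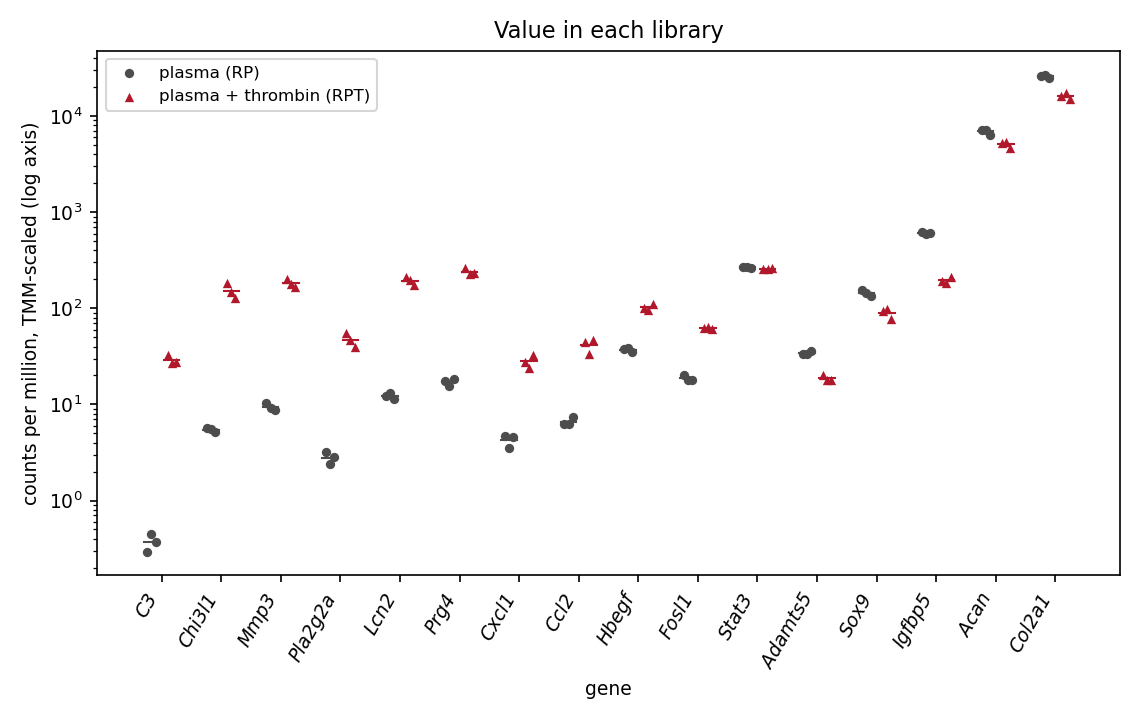
CPM on a log axis for 16 genes, with a point for each library and a line at the group mean; circles are RP and triangles RPT, 3 libraries each. RPT lies above RP without overlap from C3 to Fosl1 and below it from Adamts5 to Col2a1. From C3 to Ccl2 no overlap was a condition of the rule for the largest rises. Stat3 stays between 257 and 267 CPM in both group means.

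Transcripts of the thrombin receptors were at low to moderate level. F2r, which encodes the main thrombin receptor PAR1, was the highest of them per length, at 16.4 ± 0.615 FPKM in RP and 13.9 ± 0.981 FPKM in RPT (mean ± SD, n = 3; FPKM scale counts by gene length and library size). Its CPM were 58.1, 55.2 and 53.5 in RP and 46.7, 43.2 and 49.7 in RPT, a fall of 1.20-fold (edgeR adjusted p = 0.0237). Leaving out RP replicate 1 (edgeR adjusted p = 0.1), RPT replicate 1 (0.0628) or RPT replicate 2 (0.0775) ended that call. F2rl1, whose product PAR2 is cut by trypsin-like proteases, rose from 7.19, 7.80 and 7.13 CPM to 15.9, 14.8 and 12.3 CPM (log2 fold change 0.96, SE 0.12, edgeR adjusted p = 6.21e-05). F2rl2, the thrombin-binding PAR3, had 0.520, 0.506 and 0.449 CPM in RP and 0.601, 0.650 and 1.19 CPM in RPT and did not pass (edgeR adjusted p = 0.2). F2rl3, the thrombin receptor PAR4, was below the count filter, with 8, 0 and 1 counts in RP and 1, 2 and 1 counts in RPT. Among the G proteins, receptor kinases, arrestins and RGS proteins that pass on or end receptor signals, 14 of 17 tested genes did not pass. Rgs16, which speeds the turn-off of Gi and Gq, rose 2.42-fold from 5.16, 4.59 and 4.94 CPM to 11.8, 11.1 and 12.7 CPM. The other two that rose, Arrb1 (0.32) and Grk2 (0.21), lost the call when RP replicate 1, RP replicate 3, RPT replicate 1 or RPT replicate 2 was left out (edgeR adjusted p from 0.0755 to 0.144), and 5 of the 17 rose without RPT replicate 3.

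Genes of the clotting and plasminogen system mostly rose, with 9 of 16 tested rising and 2 falling. Inhibitors of serine proteases were among them. Serpine2, which encodes the thrombin inhibitor nexin, rose from 952, 956 and 939 CPM to 1556, 1544 and 1737 CPM (1.70-fold). Tfpi2, an inhibitor of plasmin and trypsin, rose 4.59-fold from a low level, 0.970 ± 0.259 to 4.46 ± 0.246 CPM (SD, n = 3). Genes of the cell surface rose as well. Plaur, the urokinase receptor, rose 2.30-fold to 37.3 ± 3.41 CPM. Procr, the endothelial protein C receptor, rose 1.91-fold, and tissue factor (F3) rose 1.45-fold. The genes that fell were Gas6, a vitamin K-dependent ligand of TAM receptors (1.93-fold, from 269 ± 1.46 to 139.6 ± 9.15 CPM), and the clotting factor gene F5 (1.64-fold). Urokinase itself (Plau, -0.14) did not pass.

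Transcripts of the RAS, RAF, MEK and ERK cascade itself changed little, while many of those that its activity is known to induce rose. Whether its activity changed was not tested. Of 17 cascade genes, 1 rose and none fell, with a list median log2 fold change of 0.03. The MEK genes Map2k1 and Map2k2 had log2 fold changes of 0.22, SE 0.08 and of 0.00, SE 0.11, and the ERK gene Mapk3 of -0.08, SE 0.08. None of these 3 passed, Map2k1 lying at the threshold (edgeR adjusted p = 0.05; 0.0231 without RPT replicate 2, and below 0.05 in 6 other settings). The adaptor gene Shc1, the single one that rose (0.21), lost the call without RP replicate 1, RP replicate 3, RPT replicate 1 or RPT replicate 2 (edgeR adjusted p from 0.067 to 0.0756).

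ERK feedback genes, which encode the phosphatases and adaptors that restrain ERK signalling, rose in 14 of 20 cases and fell in none (median 0.47). Among the phosphatases, Dusp4 had 2.40, 2.65 and 2.64 CPM in RP and 7.50, 9.60 and 8.78 CPM in RPT (log2 fold change 1.75, SE 0.16, edgeR adjusted p = 6.38e-06). Dusp5 had 8.91, 7.92 and 8.06 CPM in RP and 22.4, 19.5 and 22.7 CPM in RPT, a 2.59-fold rise. Dusp6, specific for ERK, rose 1.97-fold from 15.2, 16.7 and 14.3 CPM to 31.7, 27.5 and 31.9 CPM. In all 3 the lowest RPT value was well above the highest RP value. Among the adaptors, Spry2 rose 2.05-fold to 54.4 ± 5.34 CPM and Spred3 rose 2.27-fold to 10.8 ± 0.928 CPM. Errfi1, an inhibitor of the EGF receptor, rose 2.06-fold from 26.4 ± 1.44 to 54.3 ± 1.07 CPM. Spry1 (0.45), Spred1 (0.11), Dusp7 (-0.01), Dusp14 (-0.20), Dusp16 (0.25) and Spry3 (0.14) did not pass.

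Ligands of the EGF receptor rose with them, 5 of 8 tested rising and none falling. Hbegf, heparin-binding EGF, had 37.5, 38.3 and 35.3 CPM in RP and 100.1, 96.5 and 112 CPM in RPT (log2 fold change 1.47, SE 0.07, edgeR adjusted p = 4.64e-08). Amphiregulin (Areg) rose 2.78-fold, from 2.92, 3.45 and 3.41 CPM to 8.63, 8.54 and 9.97 CPM. Epiregulin (Ereg) and Tgfa rose 1.79-fold and 1.52-fold. Of 4 tested receptor genes 0 rose and 1 fell. Egfr had a log2 fold change of -0.11, SE 0.08 and did not pass (edgeR adjusted p = 0.323).

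Of 27 transcription factors of the AP-1, EGR, ETS and other immediate early groups, 15 rose and none fell (median 0.44). Fosl1, an AP-1 subunit that ERK activity is known to raise and stabilise, rose most, from 20.1, 18.0 and 18.0 CPM to 62.9, 63.7 and 61.4 CPM (log2 fold change 1.74, SE 0.10, edgeR adjusted p = 1.42e-07). Jun rose 1.69-fold from 70.3, 65.6 and 65.2 CPM to 113, 115 and 112 CPM. Junb rose 1.85-fold from 35.3, 39.2 and 34.8 CPM to 62.4, 68.2 and 71.4 CPM. For these AP-1 genes the groups did not overlap. Myc rose 1.61-fold, Egr1 1.64-fold and the PEA3 factors Etv4 and Etv5 2.02-fold and 1.43-fold. Fos (0.26, SE 0.26), Fosb (0.10, SE 0.28), Egr3 (-0.21, SE 0.49) and Srf (-0.05, SE 0.09) did not pass at this 24 h time. The architectural chromatin protein genes Hmga1 and Hmga2, both highest in embryonic and growing cells, rose 2.89-fold and 2.25-fold. Hmga1 reached 492, 578 and 456 CPM from 175, 197 and 157 CPM. Rat Hmga1 has near-identical copies in the genome, and how reads shared between copies were counted is not given in the sources used here.

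**Figure D3:**
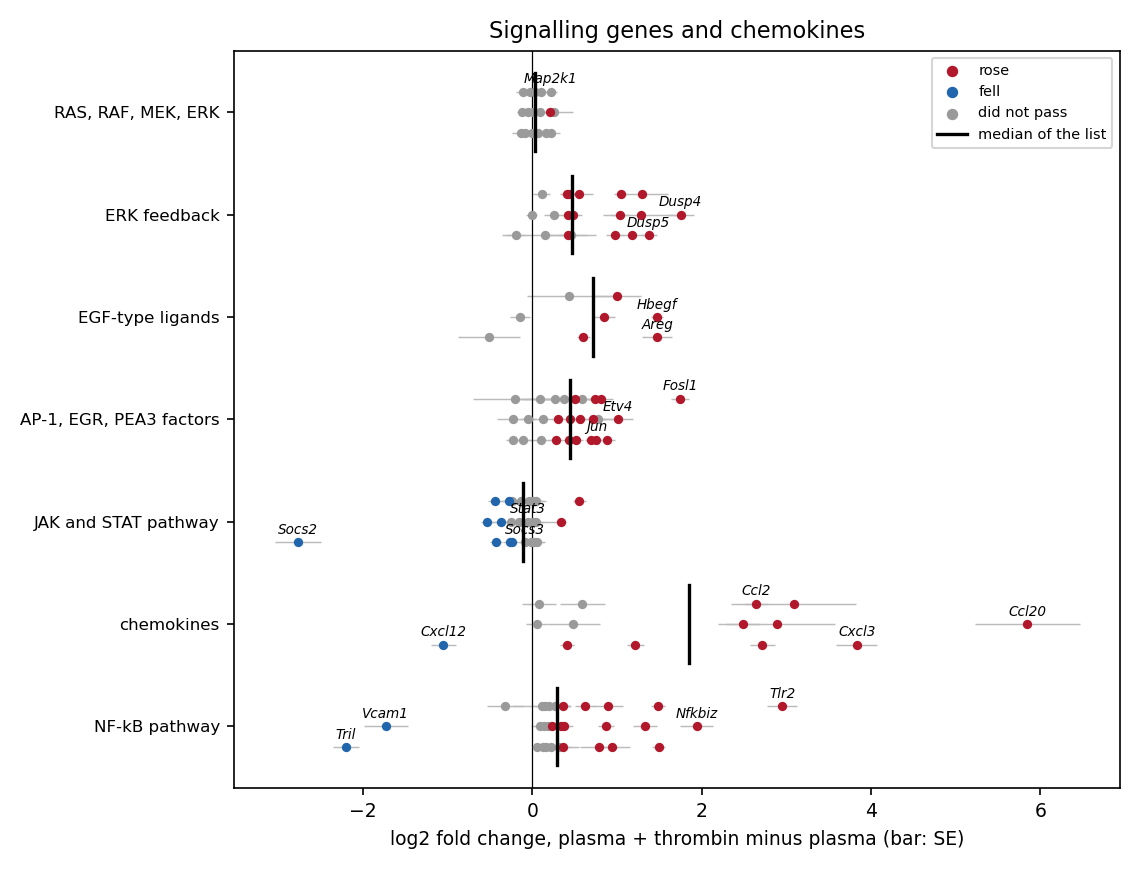
Log2 fold change of each tested member of 7 lists, with its SE as a grey bar, the list median as a black line, and red for genes that rose, blue for genes that fell and grey for those that did not pass. The RAS, RAF, MEK and ERK genes lie close to 0 (median 0.03), while the feedback genes (median 0.47), EGF-type ligands (median 0.72) and chemokines (median 1.85) lie to the right. The position of Ccl20, with 2 counts in all of RP, depends on the prior count of the fit.

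Promoters were read for 4 short sequence motifs. RefSeq promoters of build GRCr8 (250 bases before to 50 after the start of a gene) were matched by symbol to 9917 of the tested genes. Motifs were searched on both strands, and matches of different motifs may overlap. The AP-1 type motif TGANTCA was present in 24 of the 140 promoters of genes that rose at least 2-fold (17.1%). It was present in 4.98% of promoters of tested genes (494 of 9917), in 7.64% of those of all genes that rose (107 of 1401) and 5.04% of all that fell (78 of 1547), in 7.58% of those of genes that fell at least 2-fold and in 7.33% of all 33469 promoters in the table. The median GC content was 60.3% for the genes that rose at least 2-fold, 58.3% for those that fell at least 2-fold and 61.0% for tested genes. The NF-kB type motif GGANNNTCC was in 12.1% of promoters of genes that rose at least 2-fold against 9.95% of tested genes and 8.25% of all promoters. This pattern does not take in every form of NF-kB site. Promoters of Cxcl2 and Tlr2, with stretches that differ from it by a letter, were scored as without a match. The STAT type motif TTCNNNGAA was in 4.29% against 6.56% and 8.87%, and the CArG box, read by serum response factor, in 1.43% against 1.28% and 1.64%. No test was made on these shares, and a match is a description of letters in this window. Windows of 23 bases, 5′ to 3′ with 8 bases on either side of the AP-1 type motif in capitals, are printed for 6 of the 24 genes, chosen after their values were seen as members of the protease, chemokine, plasminogen and inflammatory groups:
Mmp3: agcaattaTGAGTCAgtttgcgg
Mmp10: cacccacaTGAGTCAtgcttagt
Ccl7: ccctcctgTGATTCAttccaaag
Tfpi2: ctcagtcgTGAATCAgccacgtt
Plaur: atcccagcTGACTCActctttag
Tnfrsf1b: agagagacTGAGTCActccagga
The Mmp3 window is at chr8:12925202-12925224 on the + strand and the Mmp10 window at chr8:12974638-12974660 on the + strand, with the motif starting 71 and 61 bases before the start of the gene. The Ccl7 window is at chr10:67514014-67514036 (+, 73 bases before), the Tfpi2 window at chr4:32941342-32941364 (-, 80 bases before), the Plaur window at chr1:89181272-89181294 (+, 83 bases before) and the Tnfrsf1b window at chr5:162387583-162387605 (-, 186 bases before).

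Most chemokines, which draw leukocytes to a tissue, rose: 9 of 14 tested rose, 1 fell and the list median was 1.85. The neutrophil chemokine gene Cxcl1 had 4.70, 3.48 and 4.60 CPM in RP and 27.7, 24.1 and 32.8 CPM in RPT (log2 fold change 2.72, SE 0.15, edgeR adjusted p = 9.77e-08). The monocyte chemokine gene Ccl2 had 6.22, 6.25 and 7.32 CPM in RP and 44.3, 33.2 and 46.3 CPM in RPT, a 6.25-fold rise. Cxcl3 rose 14.2-fold from 0.271, 0.506 and 0.449 CPM to 5.70, 5.29 and 6.34 CPM. RPT values of Cxcl3 exceeded all its RP values. For Cxcl1 and Ccl2 that was a condition of the rule for the largest rises. Ccl7 rose 5.63-fold to 5.18 ± 0.656 CPM and Cxcl16 2.32-fold to 16.3 ± 0.826 CPM. Ccl20, Cxcl2 and Cxcl6 rose from almost nothing: Ccl20 had 0, 0 and 2 counts in RP and 50, 36 and 38 in RPT, Cxcl2 had 3, 3 and 0 and 15, 13 and 14, and Cxcl6 had 3, 0 and 4 and 26, 14 and 16. Cxcl14 rose by 0.41 on the log2 scale. Cxcl12, a constitutive chemokine of stromal cells, was the one that fell, 2.07-fold from 6.17, 6.11 and 6.34 CPM to 2.46, 3.03 and 3.51 CPM. The interferon-type chemokine genes Cxcl10 (0.08, SE 0.20) and Cxcl11 (0.59, SE 0.27) did not pass.

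Cytokines and their receptors rose in 15 of 37 tested cases and fell in 4 (median 0.23). Il6, the main inflammatory ligand upstream of Stat3, rose but stayed near the detection limit, with 9, 2 and 4 counts in RP and 29, 23 and 27 counts in RPT (log2 fold change 2.55, SE 0.48, edgeR adjusted p = 0.00165). Il1b was below the count filter, with 0 counts throughout RP and 6, 9 and 3 counts in RPT. Another member of the Il6 family, Lif, was higher and rose 2.69-fold from 4.18, 4.53 and 4.38 CPM to 11.0, 11.4 and 12.9 CPM. Its receptor gene Lifr fell 2.09-fold from 8.52, 6.64 and 8.69 CPM to 4.08, 3.78 and 3.54 CPM. Clcf1, a further ligand of that family, rose 1.31-fold. Csf1, the macrophage growth factor, rose 1.47-fold to 265 ± 4.20 CPM, the TNF receptor gene Tnfrsf1b rose 2.14-fold and Tnfrsf11b, the RANKL decoy osteoprotegerin, fell 1.74-fold.

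Genes of the NF-kB pathway, the shared route of inflammatory receptors to the nucleus, rose in 15 of 30 tested cases and fell in 2 (median 0.29). Tlr2, which senses bacterial lipopeptides, rose from 1.92, 1.40 and 1.22 CPM to 11.8, 10.1 and 13.4 CPM. Sod2, the mitochondrial superoxide dismutase, rose from 42.9, 45.5 and 39.7 CPM to 125, 112 and 123 CPM. Zc3h12a, an RNase that degrades cytokine messages, rose from 9.84, 9.47 and 10.2 CPM to 25.5, 29.3 and 27.5 CPM. These genes rose 7.73-fold, 2.81-fold and 2.79-fold. The groups of Sod2 and Zc3h12a did not overlap, and for Tlr2 that was a condition of the rule for the largest rises. Relb, a subunit of the alternative pathway, rose 2.52-fold, and the feedback genes Nfkbiz, Tnfaip3 and Nfkbia rose 3.84-fold, 1.91-fold and 1.29-fold. Icam1 (0.06, SE 0.06), Rela (0.19, SE 0.07; edgeR adjusted p = 0.0212 without RPT replicate 3) and Tlr4 (0.14, SE 0.14) did not pass. The genes that fell were Tril, an accessory protein of Toll-like receptors (4.61-fold), and the adhesion molecule gene Vcam1 (3.32-fold). Windows of 25 bases with the NF-kB type motif in capitals are shown for 3 genes of the inflammatory groups, chosen after their values were seen, in build GRCr8:
Cxcl1: gtgctccgGGAATTTCCctggcctg
Nfkbiz: ttggcctgGGAATTTCCagcgtgtg
Lcn2: gggctctgGGAATGTCCcttcagct
They lie at chr14:17479388-17479412 (-), chr11:58251701-58251725 (+) and chr3:36082006-36082030 (-), with the motif starting 83, 12 and 242 bases before the start of the gene. Nfkbiz has a further match 50 bases before its start, which is not printed. The motif was in 12.1% of promoters of genes that rose at least 2-fold, against 9.95% of those of tested genes. Whether these matches have a part in the rises was not tested.

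In the prostaglandin pathway a gene of each step towards prostaglandin E rose. The secreted phospholipase gene Pla2g2a, which frees arachidonic acid, rose 16.7-fold. The inducible cyclooxygenase gene Ptgs2 had 22.7, 24.1 and 27.8 CPM in RP and 50.7, 48.1 and 53.3 CPM in RPT (log2 fold change 1.03, SE 0.08, edgeR adjusted p = 2.13e-06). The synthase gene Ptges had 6.26, 7.65 and 7.69 CPM in RP and 31.8, 29.9 and 22.7 CPM in RPT (log2 fold change 1.97, SE 0.13, edgeR adjusted p = 4.5e-07). The groups of Ptgs2 did not overlap, and for Ptges that was a condition of the rule for the largest rises. The receptor gene Ptger2 rose 3.22-fold from a low level to 4.37 ± 0.363 CPM. The prostaglandin D synthase gene Ptgds fell 1.95-fold from 88.6 ± 5.53 to 45.5 ± 2.98 CPM, and Hpgd, which inactivates prostaglandins, fell 2.40-fold. In all, 8 of 22 tested genes rose and 6 fell, 4 and 5 of them at least 2-fold. Of 5 tested phospholipases 1 rose and 4 did not pass. Of 8 tested cyclooxygenases and synthases 5 rose and 3 fell.

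Complement genes did not move as a group, with 5 of 17 tested rising and 3 falling. The rise of C3 was accompanied by C1s, a protease of the classical pathway, with 14.2, 12.4 and 16.4 CPM in RP and 54.6, 47.9 and 58.7 CPM in RPT (3.75-fold). Its partner C1r rose 1.92-fold to 80.3 ± 1.49 CPM, and the decay-accelerating factor gene Cd55 rose 1.89-fold. Masp1, of the lectin pathway, fell 1.82-fold. C4b (-0.35, SE 0.46) and C2 (0.12, SE 0.24) did not pass. Among 21 acute-phase and innate secreted proteins, 9 rose and 4 fell. Beside Lcn2, Chi3l1 and Slpi, Orm1 rose from 0, 2 and 0 counts in RP to 86, 59 and 29 counts in RPT, and the lipopolysaccharide-binding protein genes Lbp and Cd14 rose 1.79-fold and 1.89-fold. The pentraxin gene Ptx3 fell 2.11-fold from 17.4, 16.7 and 18.6 CPM to 7.50, 7.65 and 9.85 CPM. Haptoglobin (Hp, 0.96, SE 0.38) did not pass.

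Neither Stat3 nor its best known feedback target passed the test. Stat3 had 270, 269 and 264 CPM in RP and 255, 257 and 261 CPM in RPT (log2 fold change -0.05, SE 0.05, edgeR adjusted p = 0.451). Socs3, a feedback inhibitor and target of Stat3, had 17.8, 16.8 and 15.7 CPM in RP and 16.2, 15.9 and 15.2 CPM in RPT (log2 fold change -0.09, SE 0.08, edgeR adjusted p = 0.431). The RPT values of Stat3 lay just below those of RP, and the Socs3 values overlapped. Of 24 tested genes 2 rose, Stat6 (0.34) and Socs5 (0.56 on the log2 scale), and 8 fell. Socs2, a target of Stat5 and brake on growth hormone signalling, fell 6.82-fold from 3.23, 2.23 and 3.67 CPM to 0.471, 0.495 and 0.366 CPM. Stat2, which carries interferon signals, fell 1.35-fold. Pim1 (0.00, SE 0.13) and Jak2 (0.02, SE 0.10) did not pass. Interferon-stimulated genes, counted separately, rose in 0 of 23 tested cases and fell in 8 (5 without RP replicate 1 or without RP replicate 3), with a median of -0.43. Besides Stat2 the regulators Irf1, Irf7 and Irf9 fell, by between 1.35-fold and 1.39-fold. Other members among the 8 are not named here, and 1 of the 8 fell at least 2-fold. The effector gene Isg15 (-0.86, SE 0.69) was near the detection limit and did not pass.

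Of 15 tested matrix metalloproteinases 5 rose (3 without RPT replicate 1) and 4 fell (median 0.03). Mmp3 and its neighbour Mmp10, both stromelysins that cut proteoglycans and activate collagenases, rose 19.3-fold and 16.2-fold. Mmp10 had 0.497, 0.715 and 0.449 CPM in RP and 9.60, 7.89 and 9.24 CPM in RPT. The gelatinase gene Mmp9 had 1.11, 0.655 and 0.687 CPM in RP and 6.69, 7.34 and 5.58 CPM in RPT (7.88-fold). The collagenase gene Mmp13, the main enzyme that cuts type II collagen, had 64.2, 54.9 and 67.4 CPM in RP and 96.6, 73.8 and 92.0 CPM in RPT (log2 fold change 0.49, SE 0.14, edgeR adjusted p = 0.0204). Its rise was small, and the call ended when RP replicate 2 (edgeR adjusted p = 0.0799), RPT replicate 1 (0.0772) or RPT replicate 3 (0.0527) was left out. Per length, the most abundant of the family were Mmp14 (248 ± 3.13 FPKM in RP, 248 ± 10.6 in RPT) and Mmp2 (134 ± 3.56 and 139 ± 10.8 FPKM), and neither passed. Mmp3 went from 5.56 ± 0.465 to 109 ± 10.8 FPKM on the same scale. The membrane-type enzyme gene Mmp15 fell 2.97-fold and Mmp23 1.50-fold.

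The ADAMTS proteases mostly fell, 11 of 20 tested (median -0.49), with 2 rising (1 when RP replicate 1, RP replicate 2, RPT replicate 1 or RPT replicate 3 was left out). The main aggrecanase genes Adamts4 and Adamts5 both fell. Adamts5 had 33.6, 33.6 and 35.9 CPM in RP and 20.3, 17.9 and 18.1 CPM in RPT (log2 fold change -0.87, SE 0.08, edgeR adjusted p = 5.64e-06). Adamts4 had 9.86, 12.7 and 9.32 CPM in RP and 5.73, 6.69 and 5.24 CPM in RPT (log2 fold change -0.85, SE 0.13, edgeR adjusted p = 0.000412). Neither pair of groups overlapped. Adamts9, Adamts15 and Adamts12 fell 3.08-fold, 2.60-fold and 2.09-fold, and the procollagen proteinase gene Adamts2 fell 1.76-fold. Adamts8 rose 4.27-fold from a low level, 0.890 ± 0.108 to 3.80 ± 0.379 CPM. Inhibitors moved both ways: Timp1, often induced with metalloproteinases, rose 1.32-fold from 243 ± 11.2 to 321 ± 9.29 CPM, while Timp3, which inhibits aggrecanases, fell 2.00-fold from 327, 331 and 359 CPM to 158, 157 and 194 CPM. The membrane-anchored inhibitor gene Reck fell 2.14-fold from 265, 252 and 258 CPM to 120.5, 118 and 124 CPM. Among 19 cathepsins and other proteases, 3 rose and 7 fell. The secreted serine protease Htra1 rose 1.55-fold to 1082 ± 24.2 CPM and the metalloprotease gene Adam12 1.89-fold, while Htra3 fell 1.67-fold and the collagen-degrading cathepsin gene Ctsk 1.29-fold.

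Most cartilage matrix genes fell. All 7 cartilage collagen genes fell (median -0.58). Col2a1 had 26188, 27012 and 24991 CPM in RP and 16171, 17359 and 15064 CPM in RPT (log2 fold change -0.69, SE 0.05, edgeR adjusted p = 1.51e-06). Col11a1, which sets the diameter of type II fibrils, had 9117, 8714 and 10068 CPM in RP and 6011, 5746 and 6855 CPM in RPT. Col9a1, on the fibril surface, had 2087, 2002 and 2229.7 CPM in RP and 1159.9, 1152 and 1376 CPM in RPT. They fell 1.61-fold, 1.50-fold and 1.71-fold, with every RPT value below every RP value. Col27a1, a thin-fibril collagen of growth cartilage, fell most (2.38-fold, from 498 ± 7.47 to 209 ± 9.26 CPM). Per length Col2a1 stood at 5788 ± 184 FPKM in RP and 3643 ± 256 FPKM in RPT, above Fn1 in RP (5322 ± 61.4 FPKM) and below it in RPT (6314 ± 83.0 FPKM).

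Of 22 tested genes of aggrecan, link protein, matrilins and related proteins, 17 fell, 3 rose and 2 did not pass (median -0.88). Acan, aggrecan, fell by less than most, from 7234, 7128 and 6421 CPM to 5210.2, 5426 and 4706 CPM (log2 fold change -0.44, SE 0.06, edgeR adjusted p = 0.000196). The link protein gene Hapln1, which fastens aggrecan to hyaluronan, fell from 1124, 1171 and 1467 CPM to 670.2, 574 and 577 CPM. Matn1, a matrilin that bridges the network, fell from 626, 639.5 and 573 CPM to 241, 256 and 222 CPM. The last pair fell 2.07-fold and 2.56-fold without overlap. Matn3 fell 2.66-fold, Cytl1 2.81-fold, Ucma 2.21-fold, chondromodulin (Cnmd) 1.88-fold and Comp 1.57-fold. Against this trend Prg4, described above, and Vcan, the versican of loose connective tissue, rose, Vcan 1.42-fold from 208, 206 and 239 CPM to 343, 299 and 285 CPM.

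Small leucine-rich proteoglycans, which coat collagen fibrils, fell in 7 of 13 cases (median -0.53). Fibromodulin (Fmod) fell 1.58-fold from 1061 ± 22.7 to 672 ± 33.9 CPM and epiphycan (Epyc) 2.29-fold, while the abundant biglycan gene Bgn (-0.07, SE 0.05) did not pass. Genes that build and sulfate glycosaminoglycan chains fell in 18 of 37 cases (median -0.18) and rose in 1. Slc26a2, the sulfate transporter, fell 2.15-fold from 138, 119 and 133 CPM to 61.6, 53.5 and 65.4 CPM. Csgalnact1, which starts chondroitin chains, fell 1.82-fold, Xylt1, which attaches the first sugar, 1.63-fold, and Chst11, a chondroitin sulfotransferase, 1.41-fold. The heparan sulfotransferase gene Hs3st1 rose 3.72-fold from 0.959 ± 0.159 to 3.57 ± 0.161 CPM. In the hyaluronan list the receptor gene Cd44 rose 2.08-fold from 193, 186 and 197 CPM to 391, 374 and 432 CPM, the synthase gene Has2 rose 1.34-fold and the hyaluronidase gene Hyal1 fell 1.72-fold.

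The falls were not limited to cartilage matrix. Of 21 collagens of other tissues 15 fell (median -0.40) and 3 rose (1 when RP replicate 1, RP replicate 3 or RPT replicate 2 was left out). Col1a1 had 12331, 12546 and 11241 CPM in RP and 6382, 7084 and 6245 CPM in RPT (log2 fold change -0.87, SE 0.07, edgeR adjusted p = 1.06e-06). Col14a1, a fibril-associated collagen, fell 2.40-fold and Col3a1 1.46-fold. Col7a1, the anchoring fibril collagen of skin, rose 3.15-fold from 1.93 ± 0.492 to 6.11 ± 0.507 CPM. Adhesive and elastic proteins fell in 16 of 28 cases and rose in 5. Elastin (Eln) had 2048, 2221 and 2126 CPM in RP and 841, 918 and 791 CPM in RPT (2.51-fold), and the microfibril genes Fbn2 and Mfap2 fell 2.23-fold and 3.75-fold. Fn1 rose from 44832, 44894 and 43451 CPM to 51941, 52545 and 51552 CPM, a rise of 1.17-fold with no overlap (edgeR adjusted p = 0.000434), and fibulin 2 (Fbln2) rose 1.71-fold. Among 17 integrin genes, 6 rose and 4 fell. The collagen and laminin receptor genes Itga2 and Itga3 rose 2.90-fold and 1.85-fold, and Itga8, whose product binds fibronectin and osteopontin, 2.03-fold. The fibrillar collagen receptor genes Itga10, typical of chondrocytes, and Itga11 fell 1.67-fold and 1.87-fold.

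**Figure D4:**
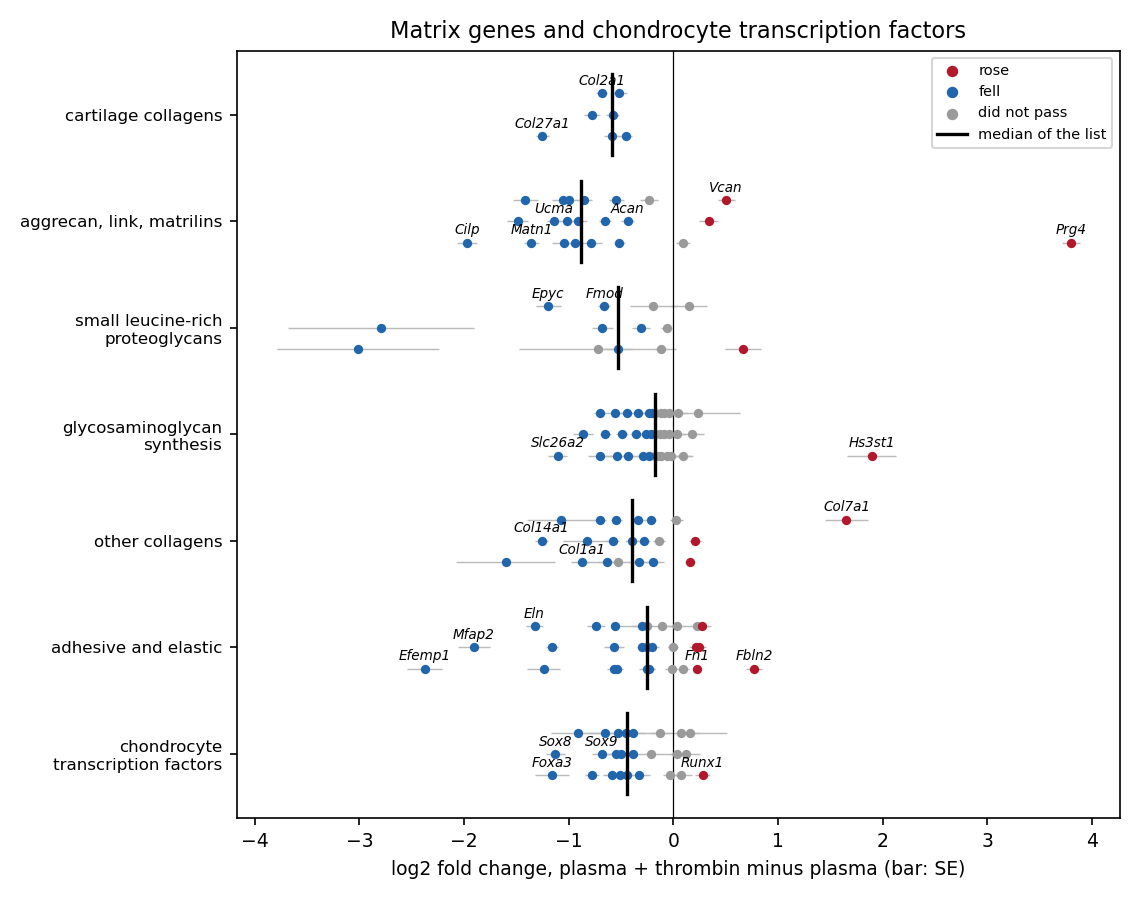
Log2 fold change of each tested member of 7 matrix and transcription factor lists, with SE bars, list medians as black lines, and red, blue and grey for genes that rose, fell or did not pass. Nearly all cartilage collagen, aggrecan and matrilin points lie left of 0, with Prg4 at 3.80 far to the right.

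Transcription factors of chondrocytes fell in 16 of 25 cases (median -0.44), while Runx1 rose 1.21-fold (2 rose without RPT replicate 3). Sox9 had 154, 145 and 134 CPM in RP and 93.3, 99.5 and 77.1 CPM in RPT (log2 fold change -0.68, SE 0.09, edgeR adjusted p = 0.000165). Its partners Sox5 and Sox6 fell 1.37-fold and 1.42-fold. Sox8, a close relative, fell 2.19-fold from 15.3 ± 1.06 to 7.01 ± 0.413 CPM. Barx1, Erg and Mef2c, which act in joint and growth cartilage, fell 1.50-fold, 1.41-fold and 1.46-fold. Runx2, the driver of hypertrophy, had a log2 fold change of 0.07, SE 0.10 and did not pass. Of 15 hypertrophy and mineralization genes, 4 rose and 7 fell (4 fell without RP replicate 1 or RPT replicate 2). Spp1 rose from 2249, 2058 and 2269 CPM to 4936, 4563 and 5966 CPM (log2 fold change 1.23, SE 0.09, edgeR adjusted p = 8.82e-07), and Enpp1, which makes pyrophosphate, rose 1.61-fold. Alpl, the tissue phosphatase needed for mineral, fell 2.47-fold. Col10a1, the defining collagen of hypertrophic cells, was near the detection limit with 35, 17 and 14 counts in RP and 10, 6 and 3 counts in RPT. It fell (edgeR adjusted p = 0.0226), and leaving out RP replicate 1 (0.121), RPT replicate 2 (0.0573) or RPT replicate 3 (0.0766) ended that call.

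Growth factor pathways that shape cartilage changed in ligands, receptors and modulators. In the hedgehog and PTHrP list 9 of 11 genes fell (median -0.62). Gas1, a hedgehog co-receptor, fell from 80.0, 80.4 and 82.0 CPM to 35.8, 35.8 and 33.2 CPM (2.31-fold). The co-receptor genes Boc and Cdon, the receptor and target gene Ptch1 and the target gene Gli1 fell 1.63-fold, 1.54-fold, 1.51-fold and 1.57-fold, and Hhip, a hedgehog-binding inhibitor, rose 2.12-fold from 1.05 ± 0.0708 to 2.23 ± 0.0584 CPM. Of the FGF receptors, Fgfr3, which restrains growth cartilage, had 495, 515 and 489.8 CPM in RP and 231, 231 and 216 CPM in RPT (log2 fold change -1.14, SE 0.05, edgeR adjusted p = 3.71e-08). Fgfr2 and Fgfr4 fell 1.66-fold and 2.57-fold, while Fgfr1 (-0.06, SE 0.06) did not pass. The ligand gene Fgf9 rose 5.62-fold from 0.349 ± 0.134 to 1.99 ± 0.444 CPM. In the IGF system Igfbp5 fell from 618, 595 and 614 CPM to 192, 182 and 210.1 CPM (3.13-fold), and the ligand gene Igf2 fell 1.62-fold from 4096 ± 55.3 to 2532 ± 95.6 CPM. Stc2, an inhibitor of the IGF-releasing protease, rose 2.24-fold, and Igf1r (-0.02, SE 0.06) did not pass.

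Of 37 Wnt pathway genes, 17 fell and 6 rose (median -0.36). The receptor genes Fzd9 and Fzd4 fell 2.96-fold and 2.82-fold, and the amplifiers Rspo3 and Lgr5 fell 3.99-fold and 2.78-fold. The secreted antagonist gene Frzb, typical of articular cartilage, had 108, 107 and 106 CPM in RP and 51.8, 51.4 and 50.1 CPM in RPT (2.09-fold). Target genes divided, Nkd1 falling 2.10-fold and Axin2 rising 1.50-fold. In the TGF-beta and BMP list 15 rose and 17 fell of 48. Gdf5, the ligand of joint formation, fell 3.16-fold from 18.0, 18.3 and 17.9 CPM to 5.96, 6.41 and 4.79 CPM, and Gdf10 fell 3.16-fold. Gdf6, its close relative, rose from 12, 10 and 18 counts to 86, 86 and 123 counts (8.23-fold). The BMP antagonist gene Grem1 rose from 156, 149.9 and 179.5 CPM to 393, 341 and 437 CPM (2.42-fold), and Chrdl1, another antagonist, fell 3.85-fold. Tgfb1 rose 1.61-fold, and the feedback targets Smad7 and Pmepa1 rose 1.99-fold and 2.57-fold. The targets Ctgf (0.01, SE 0.05) and Cyr61 (0.16, SE 0.08) did not pass.

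Genes of DNA replication and mitosis that were called all rose, by small steps. Of 35 DNA replication genes 27 rose and none fell (median 0.36), and of 24 mitosis genes 13 rose and none fell (median 0.35). The origin licensing genes Orc1 and Cdt1 rose 1.61-fold and 1.51-fold, and the helicase genes Mcm3 and Mcm7 1.45-fold and 1.45-fold. Mcm3 had 90.6, 95.8 and 88.4 CPM in RP and 131, 137 and 131 CPM in RPT, and none of the replication genes changed by 2-fold. In mitosis Birc5 rose 1.46-fold and Ube2c 1.37-fold. Mki67, the common marker of cycling cells, had 191, 243 and 289 CPM in RP and 399, 312 and 198 CPM in RPT, with overlapping groups, and did not pass (edgeR adjusted p = 0.258; 0.0199 without RPT replicate 3). Of 19 regulators of the G1 phase 3 rose and 5 fell (median 0.07). Cyclin D1 (Ccnd1), which drives entry into the cycle, had 682, 709 and 597 CPM in RP and 1038, 1033 and 1006 CPM in RPT (1.55-fold), and the inhibitor gene Cdkn1c fell 1.69-fold from 332, 347 and 298 CPM to 186, 206 and 187 CPM. Ribosome biogenesis factors, many of them Myc targets, rose in 22 of 29 cases and fell in none (1 without RPT replicate 3; median 0.29), with Nop56 at 1.48-fold and Rrs1 at 1.52-fold. Cytosolic ribosomal protein genes rose in only 2 of 28 cases (0 without RP replicate 1, RP replicate 3 or RPT replicate 2; median 0.13).

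**Figure D5:**
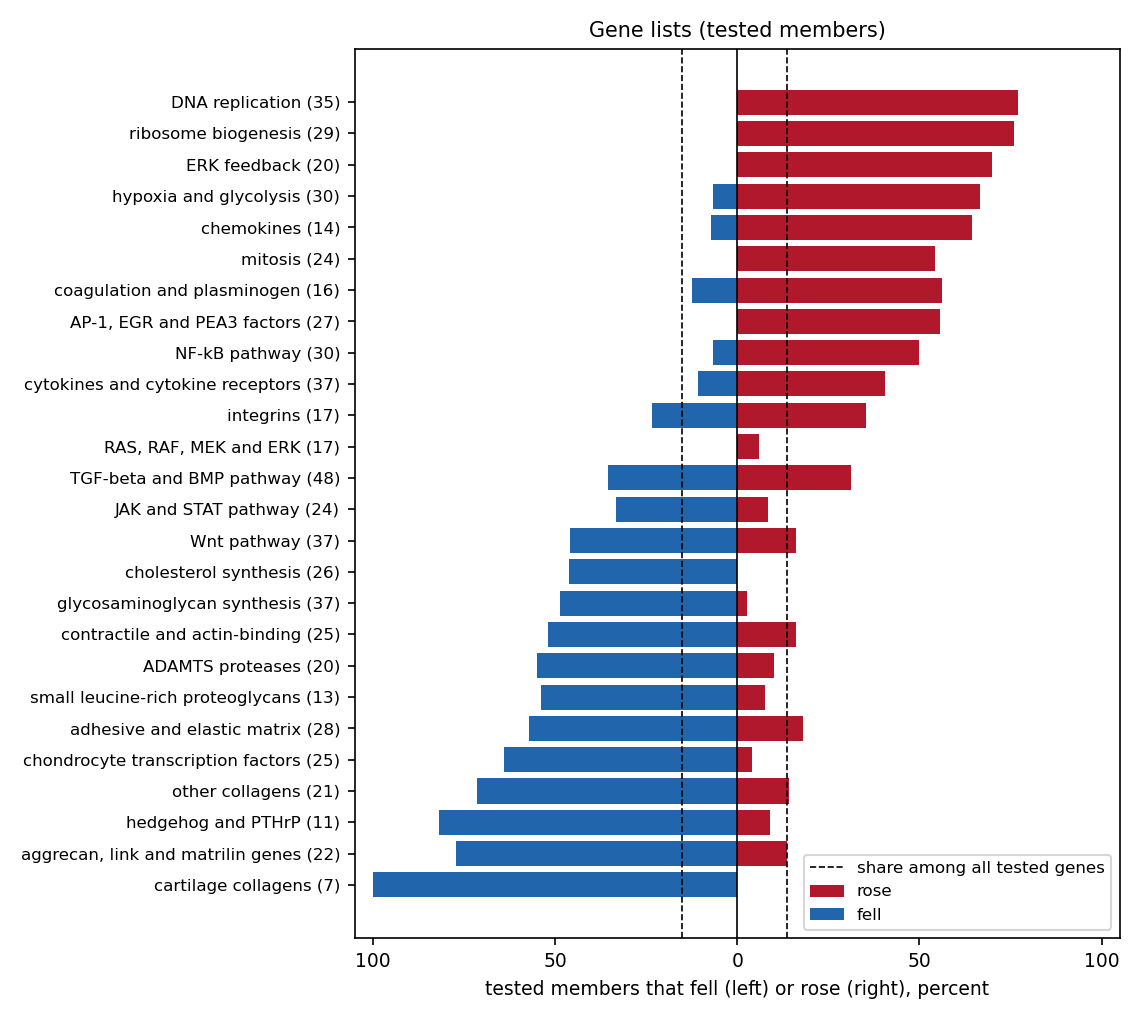
Percent of the tested members of 26 gene lists that fell (blue, to the left) or rose (red, to the right), with the number tested in parentheses. Dashed lines mark the shares over all tested genes, 15.2% fallen and 13.6% risen; all 7 cartilage collagens fell, and 27 of 35 DNA replication genes rose.

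Glycolysis genes rose in 16 of 18 cases (median 0.40). The glucose transporter gene Slc2a1 had 158, 167 and 147 CPM in RP and 281, 279.8 and 259.5 CPM in RPT (1.74-fold). Slc16a3, which exports lactate, had 66.3, 65.9 and 55.0 CPM in RP and 146, 146 and 119.8 CPM in RPT (2.20-fold). The enzyme genes Pgk1 and Ldha rose 1.47-fold and 1.51-fold. Several glycolytic genes have many near-identical copies in the genome, so their counts are uncertain. Of the other hypoxia-responsive genes 4 of 12 rose, among them Egln3 (3.04-fold), and Hif1a (-0.03, SE 0.10) did not pass. Vegfa, the vascular growth factor, rose 2.25-fold from 93.6, 90.7 and 96.0 CPM to 217, 186 and 227 CPM, while Nrp1, a VEGF and semaphorin co-receptor, fell 3.02-fold from 45.9, 41.8 and 48.9 CPM to 14.3, 13.5 and 17.5 CPM.

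Genes of the ATF4 branch, which respond to amino acid shortage and translation stress, rose in 17 of 20 cases and fell in none (median 0.49). Trib3 had 81.2, 93.8 and 81.6 CPM in RP and 161, 183 and 161 CPM in RPT (1.97-fold), the amino acid transporter gene Slc7a5 rose 1.58-fold, and Atf4 itself rose 1.40-fold. The member with the largest log2 fold change, Nupr1l1 (4.49), was high only in RPT replicate 2 and lost its call without that library (edgeR adjusted p = 0.803), which left 16 of the list rising. Chaperones of the endoplasmic reticulum went the other way or did not pass: 0 of 17 rose and 5 fell (median -0.17). That count was 2 without RP replicate 1 or RPT replicate 1, 3 without RP replicate 3 or RPT replicate 2, and 9 without RPT replicate 3. The abundant chaperone gene Calr fell 1.23-fold, and Hspa5 (-0.25, SE 0.09) did not pass, though it fell without RPT replicate 3 or RP replicate 2 (edgeR adjusted p = 0.00062 and 0.0495). Cholesterol synthesis genes rose in 0 of 26 cases and fell in 12 (median -0.23), among them Hmgcs1 (1.44-fold) and Insig1 (1.35-fold). The metallothionein genes Mt1 and Mt2A, which bind zinc, rose 2.26-fold and 2.14-fold. Of 17 clock genes 5 rose, Bhlhe40, Npas2 and Nfil3 most (1.99-fold, 1.91-fold and 1.87-fold), while Per1 (-0.04, SE 0.08), Per2 (0.09, SE 0.09) and Nr1d1 (0.16, SE 0.07) did not pass.

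Contractile and actin-binding genes fell in 13 of 25 cases and rose in 4 (median -0.31). Beside Mylk, the filamin-binding gene Rflna had 36.9, 40.6 and 28.3 CPM in RP and 10.8, 8.98 and 6.16 CPM in RPT. Smooth muscle actin (Acta2) fell 1.65-fold from 100.3, 109 and 96.4 CPM to 63.6, 66.1 and 55.0 CPM, whereas Tagln (0.18, SE 0.09) did not pass. Kit, the receptor of stem cell factor, had 15.1, 17.1 and 16.2 CPM in RP and 4.63, 3.65 and 3.69 CPM in RPT. Its log2 fold change was -2.01, SE 0.11 (edgeR adjusted p = 9.18e-08).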

How the data were processed

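Poly-A RNA was read as 150 bp paired reads, per the labels' protocols. The authors deposited read counts per gene and FPKM values (scaled to gene length and library size), with replicates in separate columns. Per the submitters' processing notes, the build was Rnor_6.0 and the tools included DESeq2 1.26.0, HTSeq 0.11.2 and HISAT2. The sources used here give neither the strand setting nor the handling of multi-mapped reads, so overlapping genes and near-identical copies may share reads.

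Counts were tested with edgeR 4.0.16 (R 4.3.3): filterByExpr with at least 10 counts, TMM scaling, and the quasi-likelihood test with a coefficient for each of the 3 groups, so that all 9 libraries set the spread. P-values were adjusted by Benjamini-Hochberg over 13856 tested of 18924 genes, and adjusted p below 0.05 is a call. CPM and fold changes are from this fit; ± is the SD of 3 libraries. The deposited FPKM served to compare genes. The code was tested on simulated data. Alternatives were other scaling, filters, DESeq2 1.42.0, limma 3.58.1 on log2(FPKM + 1), the 6 libraries alone, a replicate block, a stricter adjusted p and leaving out each library.

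Gene lists (1206 symbols, 49 without a row) come from textbook pathways. The lists and the genes named were chosen with earlier results of these data known. The rule for names took set genes of the question, the 15 largest rises and falls of at least 5 CPM, the genes of smallest p and highest level in each list, all members of small lists, and the largest gains and losses in CPM. Genes printed outside it were chosen after their values were seen: Atf4, Barx1, C2, C4b, Ccl20, Clcf1, Cxcl10, Cxcl11, Cxcl2, Cxcl6, Cyr61, Egr1, Egr3, Erg, Etv4, Etv5, Gdf6, Gli1, Hp, Isg15, Lbp, Lgr5, Mef2c, Nfkbia, Nr1d1, Orc1, Orm1, Per1, Per2, Pim1, Runx2, Sox5, Sox6, Srf, Tagln, Tlr4, Tnfaip3, and Nupr1l1 and the imprinted genes of the closing observations. A few results are not reported here.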

Additional observations from a re-analysis of the deposited data

How the results depend on the processing

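The depth limits genes near 1 count, worth 0.0226 to 0.031 CPM, and groups of 3 libraries limit small changes. At an adjusted p below 0.01, 1070 genes rose and 1312 fell. With limma on log2(FPKM + 1), which understates changes of low genes, 73 rose and 104 fell at least 2-fold. Leaving out 1 library left 1297 to 1826 genes rising and 1592 to 2131 falling, with 199 to 234 and 442 to 495 at least 2-fold; the lowest counts of genes rising and of genes falling at any size came without RP replicate 1. No other alternative moved these counts by over 1.5 times. The numbers were not read as pairs because the labels do not say that a number marks a shared animal or batch. Same-numbered RP and RPT libraries had correlations of -0.114, 0.124 and 0.0222 in their deviations from the group means. With 3 libraries in a group, these correlations cannot settle whether the numbers mark pairs. With the replicate number as a block 2514 genes rose and 2560 fell (216 and 497 at least 2-fold), and 3965 of the 3999 calls were kept. Of 230 printed genes that were called, 8 lost the call in at least 1 of 15 alternatives and none reversed. A gene that the filter of an alternative removed was not scored there. Akr1c14, Cxcl2 and Cxcl6 were among those removed when at least 1 CPM in 3 libraries was required. Irf7 lost it only at the stricter adjusted p (0.0101). Hspa5, Map2k1 and Rela passed with DESeq2's test (edgeR's adjusted p became 0.0062, 0.00899 and 0.00858 under the block). Tagln and Cyr61 also passed under the block (edgeR adjusted p = 0.00886 and 0.0293).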

Other observations

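Imprinted genes, many of which regulate fetal growth, formed a list that was put together after some of their values had been seen. Of 22 tested rows, 2 of them for Gnas, 0 rose and 13 fell, beside 13.6% rising and 15.2% falling over all tested genes. The count includes the genes whose values had been seen. The median log2 fold change was -0.54, beside -0.00 over all tested genes. Peg3, an abundant zinc finger gene of this list, had 2771, 2574 and 3061 CPM in RP and 1345, 1168 and 1206 CPM in RPT, a 2.26-fold fall (edgeR adjusted p = 4.75e-07). Mest had 809, 742 and 810.4 CPM in RP and 321, 291 and 346 CPM in RPT, and the zinc finger gene Plagl1 had 812, 797 and 771 CPM in RP and 371, 371 and 367 CPM in RPT. RPT values of these 3 genes lay below all RP values. Igf2 (-0.69), Cdkn1c (-0.75) and the adaptor gene Grb10 (-0.50) fell as well, and Magel2 (-1.91) and Zim1 (-1.89) fell most. Ndn (-0.08, SE 0.09) and Igf2r (-0.05, SE 0.05) did not pass. Of the rows of Gnas, the lower (6.25 CPM in RP, 2.25 CPM in RPT) fell, and the higher (372 and 379 CPM) did not pass.

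Akr1c14, a steroid dehydrogenase gene, was the 1 gene with 0 counts in all libraries of a group and at least 10 in each of the other, with 14, 13 and 11 counts in RP and 0, 0 and 0 in RPT. Nupr1l1 was high in 1 library only, with 0.520, 0.596 and 0.555 CPM in RP and 0.706, 36.4 and 0.518 CPM in RPT, and its call (edgeR adjusted p = 0.0191) was lost without RPT replicate 2 (0.803).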
